A study of Homo sapiens with 12 samples.

Results

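Amino acid transporters are membrane proteins that move amino acids into or out of cells, and 10 of them, chosen by gene symbol, were followed here among the 60708 genes counted in HCT116 cells under mitochondrial or endoplasmic reticulum (ER) stress. The genes were SLC3A2, SLC7A11, SLC7A5, SLC43A1, SLC7A1, SLC6A9, SLC1A4, SLC1A5, SLC38A1 and SLC38A2. This choice was made with earlier results of these data known. HCT116 is an established human colon cancer cell line, labelled wild type here and kept in RPMI1640 medium with fetal bovine serum in all groups. For 24 h, cells received oligomycin A (OA), an inhibitor of mitochondrial ATP synthase, or tunicamycin (TN), which blocks N-linked glycosylation in the ER, or the solvent DMSO alone. Each stressor had its own DMSO libraries, and each of the 4 groups held 3 libraries labelled as biological replicates, giving 12 RNA-seq libraries of total RNA. The labels give 5 µg/mL for both stressors, but the study's methods text gives a higher dose for OA. The dose of OA is therefore uncertain, and there was 1 dose and 1 time for each stressor.

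Cells take up and exchange amino acids through several transporter families. Some work as heterodimers, in which a light chain that carries the substrate is held at the plasma membrane by the heavy chain SLC3A2, and some couple uptake to sodium. When amino acids run short, or when the ER or mitochondria are stressed, the kinases of the integrated stress response favour translation of the transcription factor ATF4, and several transporter genes are among its known targets. ATF4 and its partners bind a composite element, the C/EBP-ATF response element, in or near the promoters of such genes.

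Of the 10 transporters, 7 rose with OA and the same 7 rose with TN, namely SLC3A2, SLC7A11, SLC7A5, SLC43A1, SLC7A1, SLC6A9 and SLC1A4. None fell with either stressor. SLC1A5, SLC38A1 and SLC38A2 did not pass the test in either comparison, although their fitted fold changes were above 0. Calls rest on the quasi-likelihood test of edgeR, at a threshold of 0.05 for p-values adjusted over all genes tested by the Benjamini-Hochberg method. By that rule 2.76% of the 14681 genes tested were called higher with OA and 1.72% were called lower. With TN, 3.65% of 14432 genes were called higher and 3.34% lower. All 10 transporters passed the filter on low counts in both comparisons. Their median log2 fold change was 1.86 with OA and 1.73 with TN, beside medians of -0.02 and -0.03 over all genes tested. In these bulk samples, more RNA per cell and a larger share of cells carrying the RNA cannot be told apart.

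Levels are given as CPM, the count of a gene scaled to a fixed library size after correction by the trimmed mean of M-values (TMM), and in each list of 3 values the order is replicate 1, 2 and 3. Total counts were between 12618634 and 24983573 in the DMSO libraries and between 9884124 and 13719776 in the treated ones, and within each stressor's series every DMSO library held more counts than every treated one. Summed over the 10 genes, the level was between 1235 and 1319 CPM in the DMSO libraries of OA and between 3041 and 4099 CPM in the OA libraries. For TN the sum went from between 1353 and 1438 CPM to between 3399 and 3481 CPM. On the deposited counts, without scaling, the 10 genes held from 0.126% to 0.157% of all counts in the DMSO libraries and from 0.276% to 0.364% in the treated ones. The share of counts taken by these transporters was thus higher in each treated library than in any DMSO library.

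**Figure D1:**
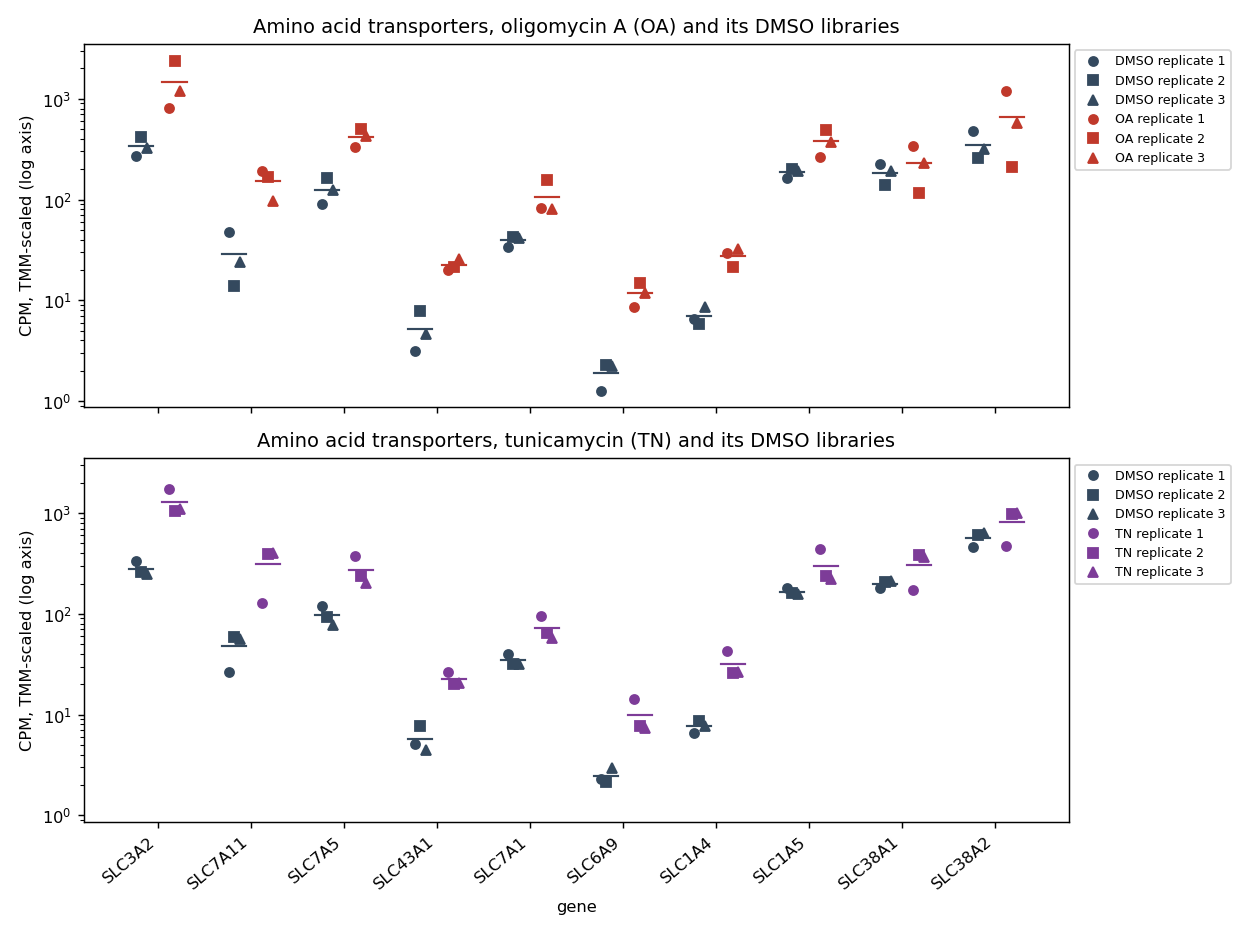
Level of each of the 10 transporters in every library, in CPM on a log axis, with OA and its DMSO libraries above and TN and its DMSO libraries below. Points are single libraries (circle, replicate 1; square, replicate 2; triangle, replicate 3) and bars are group means. The treated libraries lie above the DMSO libraries for 8 of the 10 genes in each panel, and overlap them for SLC38A1 and SLC38A2.

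Every treated library was above every DMSO library for 8 of the 10 transporters with OA and for 8 of 10 with TN, the 7 called genes and SLC1A5. The same separation was seen in 16.3% of all genes tested with OA and in 15.9% with TN.

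Promoter sequence is shown for the 5 transporters in whose RefSeq promoters (GRCh38.p14, windows of 300 bases that reach to 50 bases after the start site) the core of the C/EBP-ATF response element was found. The letters searched were TGATGNAA, where N is any base, on both strands, and the match is in capitals, while position 1 is the first transcribed base. SLC7A1, on the minus strand at chr13:29595659-29595838, has the match at positions 8 to 15. SLC1A4, on the plus strand at chr2:64989249-64989428, has it in the opposite orientation from position -7 to position 1, at 1 of its 2 listed start sites. SLC38A1, on the minus strand at chr12:46266487-46266666, has it from -4 to 4, at 1 of 2 start sites. SLC1A5, on the minus strand at chr19:46784785-46784964, has it from -97 to -90, at 1 of 3 start sites. For SLC3A2, on the plus strand at chr11:62881719-62881748, the match lies after the start site at positions 38 to 45, in the opposite orientation, at 1 of 3 start sites. SLC7A1 has 1 start site in the table.
SLC7A1: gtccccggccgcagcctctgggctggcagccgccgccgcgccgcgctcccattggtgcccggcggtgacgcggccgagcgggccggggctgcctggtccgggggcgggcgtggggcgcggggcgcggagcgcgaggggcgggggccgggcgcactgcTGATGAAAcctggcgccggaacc
SLC1A4: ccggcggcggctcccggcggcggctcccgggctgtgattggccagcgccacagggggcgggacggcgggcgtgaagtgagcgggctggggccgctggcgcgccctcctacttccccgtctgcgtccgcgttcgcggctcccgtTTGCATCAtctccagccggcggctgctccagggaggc
SLC38A1: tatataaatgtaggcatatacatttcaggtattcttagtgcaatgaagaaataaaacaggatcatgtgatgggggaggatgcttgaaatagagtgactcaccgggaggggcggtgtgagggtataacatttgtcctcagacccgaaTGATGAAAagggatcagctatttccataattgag
SLC1A5: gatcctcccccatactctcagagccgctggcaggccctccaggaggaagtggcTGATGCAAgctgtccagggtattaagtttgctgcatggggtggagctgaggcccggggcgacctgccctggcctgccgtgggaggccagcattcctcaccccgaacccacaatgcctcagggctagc
SLC3A2: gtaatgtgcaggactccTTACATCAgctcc

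Of the 10 transporters, all but SLC7A11, 9 genes, were matched to 16 promoters in the RefSeq table, and 5 of these promoters, in 5 genes, held the composite core. In comparison, 3.62% of all 35116 promoters in the table and 4.46% of its 27305 genes held it. Of the 5 genes with a match, SLC7A1, SLC1A4 and SLC3A2 were called higher with both stressors, and SLC38A1 and SLC1A5 were not. SLC7A5, SLC43A1 and SLC6A9 were called higher and held no match in this window. The core of the antioxidant response element, bound by the oxidative stress factor NRF2 and searched as TGACNNNGC on both strands, was found in 4 of the 16 promoters, those of SLC7A5, SLC3A2, SLC7A1 and SLC1A5, and in 13.3% of all promoters. The ER stress response element was found in none of the 16 promoters, and in 0.0769% of all promoters. A match of letters is a description of the sequence and not of binding, and no match says only that the letters are absent from this window.

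SLC3A2 (ENSG00000168003.18, chr11:62856004-62888880, plus strand), the shared heavy chain of the heterodimers, rose with both stressors. Its level was 272, 414 and 325 CPM in the DMSO libraries of OA and 819, 2400 and 1188 CPM with OA. All 3 OA libraries were above the DMSO libraries, and OA replicate 2 was the highest by far. The fitted log2 fold change was 2.12 ± 0.41 (SE, n = 3 per group), a 4.36-fold increase, with an adjusted p of 0.0351 (edgeR, Benjamini-Hochberg). With TN the level went from 335, 261 and 249.2 CPM to 1720, 1047 and 1098 CPM. The groups did not overlap, and replicate 1 was highest in both. Here the log2 fold change was 2.19 ± 0.27, with an adjusted p of 0.00662 (edgeR), the lowest among the 10 transporters in this comparison.

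SLC7A11 (ENSG00000151012.13, chr4:138164097-138242349, minus strand), also known as xCT, is the light chain that takes up cystine in exchange for glutamate and so feeds glutathione synthesis. It was measured at 47.8, 14.0 and 24.1 CPM with DMSO and at 194, 168 and 95.9 CPM with OA. The DMSO libraries themselves spread widely, but the lowest OA library was above the highest of them. SLC7A11 rose by a log2 fold change of 2.41 ± 0.48, with an adjusted p of 0.0365 (edgeR). With TN the values were 128, 396 and 403 CPM, beside 26.2, 59.3 and 56.8 CPM in its DMSO libraries. Replicate 1 was the lowest library in both the TN and the DMSO group. The log2 fold change of 2.71 ± 0.52, a 6.52-fold increase with an adjusted p of 0.0248 (edgeR), was the largest fitted change among the 10 genes with TN. Scaling to total counts ended the OA call, with a log2 fold change of 2.20 and an adjusted p of 0.0686 (edgeR). The OA change was larger with the GC offset described further on, at 3.25 (adjusted p 0.00365), with that offset and the replicate block, at 3.08 (adjusted p 0.00127), and without DMSO replicate 1, at 3.05 but not called (adjusted p 0.0773, all edgeR). An annotated antisense transcript, SLC7A11-AS1, covers 8.97% of the exon length of SLC7A11, and the strand setting of the counting is not given in the sources used here.

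SLC7A5 (ENSG00000103257.9, chr16:87830023-87869507, minus strand), the LAT1 light chain, exchanges large neutral amino acids such as leucine. Its level was 89.8, 163 and 124 CPM with DMSO and 331, 500 and 426 CPM with OA. The increase was seen in all 3 libraries, and the groups were well apart. SLC7A5 rose by a log2 fold change of 1.74 ± 0.30, with an adjusted p of 0.0270 (edgeR). With TN the level was 371, 240 and 203 CPM, beside 119, 92.8 and 77.5 CPM with DMSO. The lowest TN library was above the highest DMSO library, and the log2 fold change was 1.49 ± 0.29, with an adjusted p of 0.0272 (edgeR).

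SLC43A1 (ENSG00000149150.9, chr11:57484534-57515780, minus strand), or LAT3, carries large neutral amino acids by facilitated diffusion without SLC3A2. It was at 3.15, 7.90 and 4.58 CPM with DMSO and reached 19.985, 21.3 and 25.4 CPM with OA. With TN it went from 5.09, 7.63 and 4.45 CPM to 26.4, 20.2 and 20.5 CPM. Treated and DMSO libraries were separate in both comparisons, and the OA and TN libraries overlapped each other. On the log2 scale the fold change was 2.09 ± 0.38 with OA (adjusted p 0.0301) and 1.96 ± 0.29 with TN (adjusted p 0.0110, both edgeR).

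SLC7A1 (ENSG00000139514.13, chr13:29509414-29595688, minus strand), or CAT1, takes up the cationic amino acids arginine and lysine. Its level was 34.1, 42.8 and 41.3 CPM with DMSO and 81.8, 158 and 80.0 CPM with OA. OA replicate 2 again stood highest, and the other two OA libraries were also above all DMSO libraries. With TN it was 94.5, 64.4 and 57.5 CPM, beside 39.8, 32.1 and 31.5 CPM with DMSO. Its log2 fold changes, 1.43 ± 0.32 with OA and 1.07 ± 0.25 with TN, were the smallest among the 7 called genes. Both were close to the threshold, with adjusted p of 0.0477 and 0.0495 (edgeR).

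SLC6A9 (ENSG00000196517.13, chr1:43991500-44031467, minus strand), the glycine transporter GLYT1, had the lowest level per kb of the 10 genes and the largest fitted change with OA. That rank of the change depended on the fit. With the GC offset the log2 fold change was 2.43, beside 3.25 for SLC7A11, and without DMSO replicate 1 it was 2.40, beside 3.05. SLC6A9 went from 1.26, 2.25 and 2.24 CPM with DMSO to 8.48, 14.9 and 11.7 CPM with OA. No OA library was near the DMSO range. SLC6A9 thus had a log2 fold change of 2.60 ± 0.39, a 6.06-fold increase, with an adjusted p of 0.0207 (edgeR). With TN it went from 2.30, 2.16 and 2.97 CPM to 14.3, 7.75 and 7.38 CPM. The groups were again apart, with TN replicate 1 the highest, and the log2 fold change was 1.99 ± 0.36 with an adjusted p of 0.0206 (edgeR). Exons of CCDC24 on the opposite strand cover 7.87% of its exon length.

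The sodium-coupled neutral amino acid carriers SLC1A4 and SLC1A5 belong to 1 family. SLC1A4 (ENSG00000115902.11, chr2:64988477-65023865, plus strand), or ASCT1, which carries serine and alanine among others, was at 6.55, 5.81 and 8.54 CPM with DMSO and at 29.4, 21.4 and 32.5 CPM with OA. With TN it was at 43.0, 25.8 and 26.2 CPM, beside 6.52, 8.66 and 7.72 CPM with DMSO. The treated libraries were well above the DMSO libraries in both comparisons. SLC1A4 rose by a log2 fold change of 1.99 ± 0.30 with OA (adjusted p 0.0212) and 2.05 ± 0.29 with TN (adjusted p 0.00938, both edgeR).

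SLC1A5 (ENSG00000105281.12, chr19:46774883-46788594, minus strand), or ASCT2, a main route of glutamine into cells, was abundant already with DMSO, at 164, 203 and 191 CPM. With OA it was at 267, 491 and 375 CPM. With TN it was at 436, 237 and 222 CPM, beside 181, 161 and 157 CPM with DMSO. The treated libraries did not overlap the DMSO libraries in either comparison. The log2 fold change was 1.02 ± 0.27 with OA, with an adjusted p of 0.0728 (edgeR), and 0.85 ± 0.29 with TN, with an adjusted p of 0.129 (edgeR), so it was called in neither. With OA it was called in 7 of 10 other settings, among them DESeq2 (adjusted p 0.0142). With the replicate number as a block, the TN change was 0.78 on the log2 scale and was called, with an adjusted p of 0.0162 (edgeR), in a fit that called 11.8% of all genes higher. Without TN replicate 1 the TN change dropped to 0.51 and was not called (adjusted p 0.0724, edgeR).

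SLC38A1 (ENSG00000111371.16, chr12:46183063-46270017, minus strand) and SLC38A2 (ENSG00000134294.14, chr12:46358188-46372773, minus strand), the sodium-coupled glutamine and alanine carriers SNAT1 and SNAT2, gave libraries that overlapped between groups. SLC38A1 was at 225, 138 and 193 CPM with DMSO and at 342, 117 and 229 CPM with OA. SLC38A2 was at 475, 258 and 321 CPM with DMSO and at 1191, 209 and 578 CPM with OA. For both genes OA replicate 1 was the highest and OA replicate 2 the lowest of all 6 libraries. The log2 fold change with OA was 0.31 ± 0.39 for SLC38A1 (adjusted p 0.664) and 0.91 ± 0.55 for SLC38A2 (adjusted p 0.362, both edgeR). With TN, SLC38A1 was at 174, 385 and 366 CPM, beside 179, 206 and 214 CPM with DMSO. SLC38A2 was at 473, 984 and 995 CPM, beside 459, 601 and 637 CPM. For both genes TN replicates 2 and 3 were above all DMSO libraries, while TN replicate 1 lay just under the DMSO libraries for SLC38A1 and within their range for SLC38A2. The log2 fold change with TN was 0.63 ± 0.31 for SLC38A1 (adjusted p 0.271) and 0.53 ± 0.32 for SLC38A2 (adjusted p 0.353, both edgeR). Without OA replicate 1 the fitted change of SLC38A1 with OA turned to -0.11 and that of SLC38A2 dropped to 0.15. Without TN replicate 1 both genes were called higher with TN, at 0.96 (adjusted p 0.00611) and 0.86 (adjusted p 0.0158, both edgeR).

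**Figure D2:**
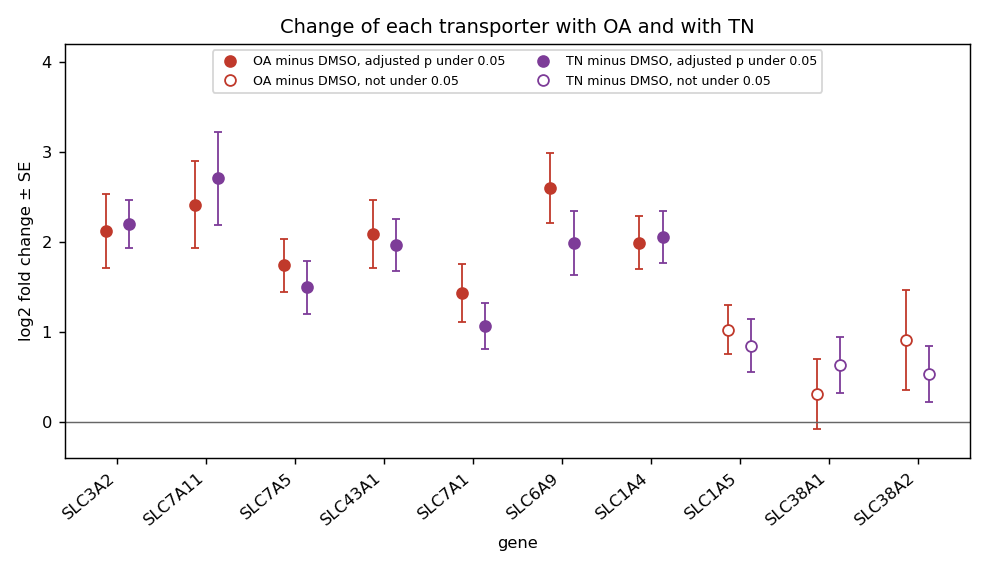
Fitted log2 fold change of each transporter against its own DMSO libraries (y axis) with OA and with TN, where bars are the SE of the fit and filled points have an adjusted p under 0.05. The 7 called genes lie between 1.07 and 2.71, and SLC1A5, SLC38A1 and SLC38A2 lie between 0.31 and 1.02 with open points.

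The spread between replicates of 1 group moved with the GC content of the transcripts for some, but not all, of these genes. The 3 transporters with the lowest GC content were SLC7A11 at 35.4%, SLC38A2 at 37.4% and SLC38A1 at 41.3%, and SLC1A5 had the highest at 61.3%. In OA replicate 2 the log2 deviation from the OA mean was -1.32 for SLC38A2 and -0.84 for SLC38A1, against 0.85 for SLC3A2 (53.8% GC) and 0.64 for SLC7A1 (52.7% GC). SLC7A11 did not go with the other low-GC genes there, at 0.20. Nor was the deviation largest at the highest GC content, with SLC1A5 at 0.42, and SLC43A1 (58.0% GC) was at -0.056. In TN replicate 1 it was -1.09 for SLC7A11, -0.74 for SLC38A1 and -0.71 for SLC38A2, against 0.62 for SLC1A5. SLC38A2 made up 36.3% of the counts of the 10 genes in OA replicate 1 and 5.10% in OA replicate 2, where SLC3A2 made up 58.5%. The Spearman correlation between a library's deviation and GC content was taken over tested genes with a mean count of at least 20 and a known GC content. It ranged from -0.74 in the DMSO replicate 1 of OA to 0.74 in TN replicate 1. This is a correlation across genes of 1 library and is given as a description.

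**Figure D3:**
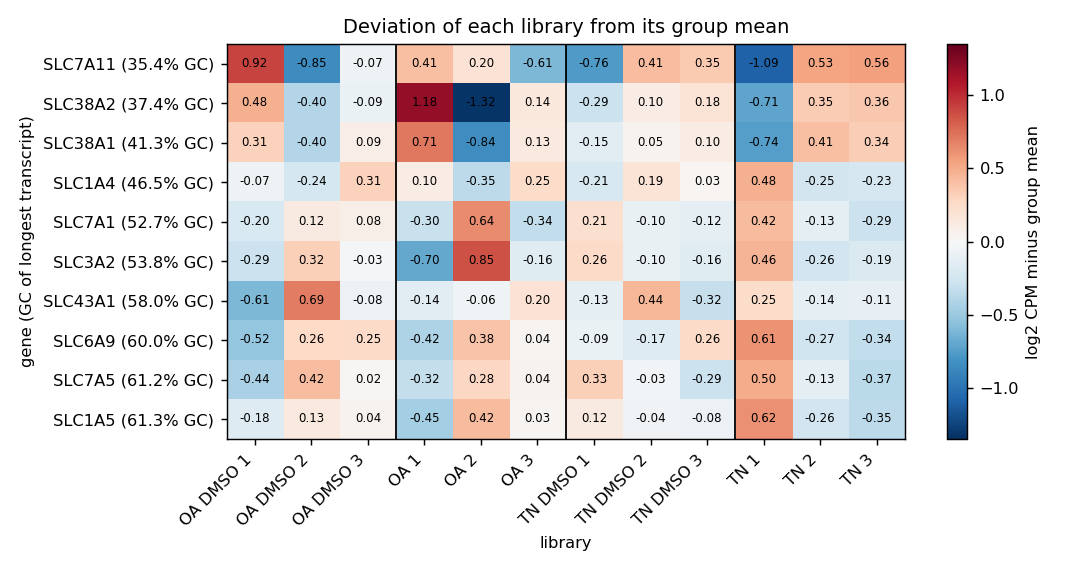
Log2 CPM of each transporter minus the mean of its group, with libraries in columns and genes in rows ordered by GC content. In OA replicate 1 and OA replicate 2 the rows of SLC38A2 and SLC38A1 have opposite signs to those of SLC3A2 and SLC7A5, and in TN replicate 1 the 3 genes of lowest GC content deviate downwards while the other 7 deviate upwards.

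With an offset for GC content per library, 9 of the 10 transporters were called higher with OA, in a fit that called 8.51% of all genes higher. SLC38A2 was then called at a log2 fold change of 1.19 (adjusted p 0.0225) and SLC1A5 at 0.83 (adjusted p 0.0148, both edgeR), while SLC38A1 was not. With the offset and the replicate block together, all 10 were called higher with OA, beside 12.9% of all genes, and SLC38A1 was at 0.52 (adjusted p 0.0456, edgeR). With TN all 10 were called higher with the offset alone, beside 11.2% of all genes, and with the offset and the block together, beside 18.2%. In the latter fit SLC38A1 was at 0.77 (adjusted p 0.00208), SLC38A2 at 0.76 (adjusted p 0.000143) and SLC1A5 at 0.67 (adjusted p 0.000871, all edgeR). The part of GC content in the spread of single libraries was not tested beyond these fits.

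The count of called transporters depended on single libraries. Without any 1 of DMSO replicates 1, 2 or 3 of OA, or without OA replicate 3, none of the 10 was called with OA, and from 3 to 91 genes were called in all. The median log2 fold change of the 10 was from 1.71 to 1.97 in these 4 fits, with all 10 above 0. Without OA replicate 1 the count was 8, with 1179 genes called in all, and without OA replicate 2 it was 7, with 857. With TN the count was 1 without DMSO replicate 3, 3 without DMSO replicate 2 or TN replicate 2, 4 without DMSO replicate 1 or TN replicate 3, and 9 without TN replicate 1. In all, 2361 genes were called without TN replicate 1 and from 151 to 473 without any other library of the TN series, and the median of the 10 was from 1.45 to 1.80. When all 12 libraries were fitted together with 1 shared spread, 8 transporters were called higher with OA, beside 5.79% of all genes, and 7 with TN, beside 4.67%. In that joint fit, leaving out 1 library of the comparison left from 6 to 8 transporters called with OA, with from 676 to 1815 genes called in all, and from 5 to 6 with TN, with from 513 to 1186 in all.

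The order of levels between genes was read per kb of annotated exon, the union of all exons of a gene. With DMSO in the OA series, SLC1A5 (55.8 ± 6.01 CPM per kb, SD, n = 3), SLC38A2 (54.0 ± 17.2) and SLC3A2 (52.7 ± 11.2) were at the top, and their libraries overlapped. SLC7A5 (26.3 ± 7.68 CPM per kb) and SLC38A1 (18.5 ± 4.38) came next and overlapped each other. SLC7A1 (5.12 ± 0.605 CPM per kb), SLC7A11 (2.97 ± 1.80), SLC43A1 (1.48 ± 0.692), SLC1A4 (1.00 ± 0.204) and SLC6A9 (0.365 ± 0.109) followed. With OA, SLC3A2 was first at 230 ± 129 CPM per kb, though its libraries overlapped those of SLC1A5 (113 ± 33.5), which was next.

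In the TN series SLC38A2 was first with DMSO, at 86.9 ± 14.4 CPM per kb, and its libraries lay above those of SLC1A5 (49.9 ± 3.78 CPM per kb), which overlapped those of SLC3A2 (from 39.0 to 52.4 CPM per kb). With TN, SLC3A2 was first at 202 ± 58.7 CPM per kb and did not overlap SLC38A2, next at 126 ± 45.8. SLC7A11 was at 4.91 ± 1.91 CPM per kb with DMSO and at 32.03 ± 16.2 with TN, where its libraries overlapped those of SLC38A1 (30.8 ± 11.7). SLC6A9 was last in each of the 4 groups. Per kb of the longest transcript instead, the level of SLC3A2 was 119 CPM per kb with DMSO in the OA series and ranked first there, because its longest transcript of 2843 bases is much shorter than its 6392 bases of exon. The rank of SLC3A2 in the DMSO groups therefore depends on the length used.

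The balance of light to heavy chain was read as the ratio of counts per kb of exon within each library, which does not depend on library scaling. Its absolute size depends on the length used. Per kb of the longest transcript, SLC7A5 to SLC3A2 was 0.206 in DMSO replicate 1 of OA, beside 0.442 per kb of exon. The difference in log2 ratio between groups is the same with either length. The ratio was not corrected for the GC content of the transcripts. SLC7A5 to SLC3A2 was 0.442, 0.528 and 0.510 with DMSO and 0.542, 0.280 and 0.481 with OA. OA replicate 2 lay below the DMSO range and OA replicate 1 just above it. The mean log2 ratio differed by -0.24 (exact permutation test, two-sided, p = 0.7, adjusted over 4 tests 0.7). With TN the ratio was 0.289, 0.308 and 0.249, beside 0.477, 0.477 and 0.417 with DMSO. All 3 TN libraries were below all 3 DMSO libraries. The mean log2 ratio was -1.13 ± 0.11 (SD, n = 3) with DMSO and -1.83 ± 0.16 with TN, a difference of -0.70 with an exact permutation p of 0.1 (two-sided). This is the smallest p that 3 against 3 libraries allow, so the test could not reach 0.05 whatever the values, and adjusted over the 4 tests p was 0.4.

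SLC7A11 to SLC3A2 was 0.116, 0.0224 and 0.0491 with DMSO and 0.157, 0.0463 and 0.0535 with OA. With TN it was 0.0495, 0.2505 and 0.243, beside 0.0518, 0.151 and 0.151 with DMSO. The libraries overlapped in both comparisons, and replicate 1 was the lowest in both the TN group and its DMSO group. The mean log2 ratio differed by 0.53 with OA and by 0.45 with TN (exact permutation test, two-sided, p = 0.6 for each, adjusted 0.7). With 35.4% GC in SLC7A11 and 53.8% in SLC3A2, this ratio is open to GC shifts between libraries, and their part in it was not tested.

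**Figure D4:**
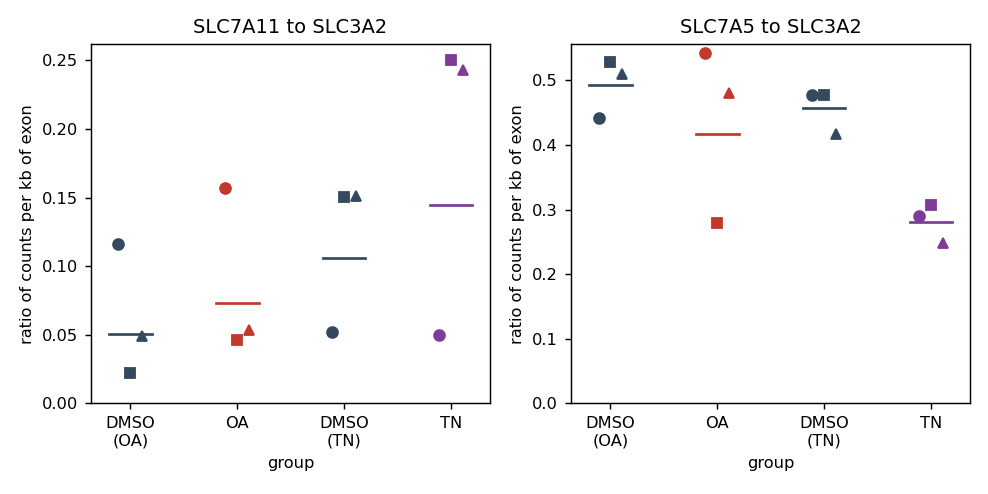
Ratio of SLC7A11 (left) and SLC7A5 (right) to SLC3A2 in each library, as counts per kb of exon (y axis, linear from 0), by group, where marker shapes give the replicate and bars the geometric mean. The SLC7A5 ratio is between 0.417 and 0.477 with DMSO and between 0.249 and 0.308 with TN, and the other groups compared overlap.

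Whether OA and TN changed the transporters differently was tested as the difference of the 2 changes over all 12 libraries. No transporter passed, and of all 15429 genes tested 0% were called (edgeR, adjusted p 0.99997 for each of the 10 genes). At an unadjusted p under 0.05 there were 348 genes and none of the 10 transporters. DESeq2 called 2 genes, none of them a transporter. The OA change minus the TN change was from -0.39 for SLC7A11 (95% interval -2.003 to 1.23) to 0.54 for SLC6A9 (-0.47 to 1.55) on the log2 scale. SLC1A5 had the narrowest interval, 0.11 with a range of -0.67 to 0.89. The intervals are wide, so with 3 libraries per group differences within their bounds are not excluded. The lack of calls therefore does not show that the changes were equal.

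Beyond the 10, a list of 42 other amino acid transporter genes was counted, of which 20 passed the filter on low counts in each comparison. Both the 10 and this list were chosen with earlier results of these data known, so the contrast between them is not a test. None of the 20 was called higher or lower with OA or with TN (edgeR). Over all genes tested, these fits called 2.76% higher and 1.72% lower with OA, and 3.65% and 3.34% with TN. A count of 0 among 20 genes is near those shares. In each comparison 6 of the 20 had an unadjusted p under 0.05, 4 higher and 2 lower. DESeq2 called 2 with OA and 4 with TN, the GC offset 3 and 6, and the replicate block 4 and 8, so the count of 0 depends on the fit. Over all genes tested, DESeq2 called 1927 of 14681 with OA and 2162 of 14432 with TN, the GC offset 2361 and 3137, and the block 3914 and 3915. Of the 8 called with TN under the block, 4 were higher and 4 lower, in a fit that called 11.8% of all genes higher and 15.3% lower. With that block the 4 genes named next were called with TN, SLC66A1 at 1.11 (adjusted p 0.00357), SLC38A10 at 0.76 (0.0137), SLC16A10 at -0.95 (0.0162) and SLC1A3 at -1.31 (0.00164, all edgeR). Without the block, the median log2 fold change of the 20 was 0.07 with OA and 0.20 with TN. SLC66A1, a lysosomal exporter of cationic amino acids, was at 1.01 ± 0.39 with OA and 1.12 ± 0.27 with TN (adjusted p 0.168 and 0.0509, edgeR). SLC38A10 was at 0.92 ± 0.24 and 0.80 ± 0.26 (adjusted p 0.0695 and 0.107, edgeR). SLC16A10, a carrier of aromatic amino acids, was at -0.95 ± 0.29 with OA and -0.95 ± 0.23 with TN (adjusted p 0.0981 and 0.0525, edgeR), and its treated libraries were all below its DMSO libraries. SLC1A3, a glutamate carrier, was at -0.34 ± 0.80 and -1.27 ± 0.43 (adjusted p 0.827 and 0.1196, edgeR).

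The regulators and targets of the amino acid response, in a list of 20 genes that holds none of the 10 transporters, were read for comparison. Of the 18 tested, 12 rose with OA and 13 with TN, and none fell. With the replicate block 14 rose with TN, where CEBPG, a partner of ATF4, was added at 1.38 (adjusted p 0.000536, edgeR). That fit called 11.8% of all genes higher. Without the block, the median log2 fold change of the 18 was 2.65 with OA and 1.43 with TN. ASNS, which makes asparagine, went from 2.87 ± 1.21 to 24.4 ± 2.56 CPM with OA (log2 fold change 3.09 ± 0.37, adjusted p 0.0149) and from 4.17 ± 0.861 to 26.5 ± 8.72 CPM with TN (2.67 ± 0.34, adjusted p 0.00707, both edgeR). CHAC1, which degrades glutathione, rose by 4.31 ± 0.35 and 3.91 ± 0.46 on the log2 scale (adjusted p 0.00437 and 0.00604, edgeR). DDIT3, the stress factor CHOP, rose by 5.23 ± 0.51 and 4.33 ± 0.34 (adjusted p 0.0100 and 0.00240, edgeR). DDIT4, an inhibitor of mTORC1 signalling, rose by 4.58 ± 0.32 and 3.68 ± 0.29 (adjusted p 0.00219 and 0.00240, edgeR).

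Of 17 genes that lead from cystine to glutathione or to thioredoxin, or respond with them, 14 were tested and 3 rose with each stressor, while none fell. GCLC, the catalytic subunit of the first enzyme of glutathione synthesis, rose by 2.24 ± 0.30 with OA and 1.63 ± 0.22 with TN (adjusted p 0.0157 and 0.00814, edgeR). TXNRD1, thioredoxin reductase, rose by 1.38 ± 0.21 and 1.01 ± 0.23 (adjusted p 0.0219 and 0.0415, edgeR). SRXN1, sulfiredoxin, rose with OA by 4.32 ± 0.84 (adjusted p 0.0351) and was at 1.87 ± 0.46 with TN (adjusted p 0.0549, both edgeR), where the replicate block gave 1.84 and a call (adjusted p 0.0181, edgeR). With the block 6 genes of the list were called higher with TN and 2 lower. That fit called 11.8% of all genes higher and 15.3% lower. The 2 lower genes were GGCT at -1.05 (adjusted p 0.0141) and CHAC2 at -1.69 (adjusted p 0.00225, both edgeR). Without the block GGCT was at -1.32 with OA and -0.98 with TN, and CHAC2 at -1.88 and -1.60, none of them called. All treated libraries of these 2 genes were below their DMSO libraries. HMOX1, haem oxygenase, rose with TN by 1.70 ± 0.36 (adjusted p 0.0352) and was at 4.26 ± 1.04 with OA (adjusted p 0.0589, both edgeR).

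**Figure D5:**
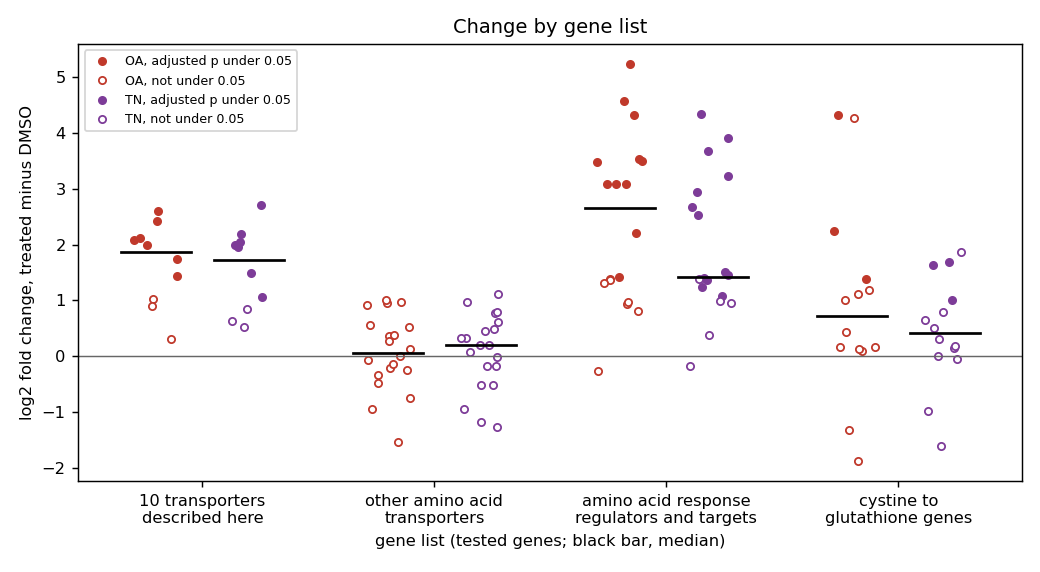
Log2 fold change of the tested genes of 4 lists with OA and TN (y axis), where each point is 1 gene, filled points have an adjusted p under 0.05 and black bars are medians. The medians of the 10 transporters are 1.86 and 1.73. Those of the other amino acid transporters are 0.07 and 0.20 with no filled point, a count near the share over all genes. The 10 and the lists were chosen with earlier results of these data known, so their contrast is a description.

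The genes whose levels moved most like 3 of the transporters were found by the root mean square distance of log2 CPM over the 12 libraries. Each gene was centred on its DMSO means, and the search covered 8985 genes with at least 10 CPM on average, without the 10 transporters. For SLC3A2 they were WDR45 (distance 0.147), LINC00963 (0.185) and SLC50A1 (0.207), beside a median of 1.66 over all these genes. For SLC7A5 they were MKNK2 (0.167), AXL (0.188) and MEGF6 (0.191), beside a median of 1.33. For SLC7A11 they were SMIM14 (0.463), LUCAT1 (0.498) and PTPDC1 (0.529), beside 2.05. None of these 8985 genes thus followed SLC7A11 as closely as the nearest genes followed SLC3A2 or SLC7A5. The median distance was also largest for SLC7A11.

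The cell type markers were checked in the same libraries. Of 12 colon epithelial markers 9 were tested, and keratin genes were abundant, with KRT8 at 1936 ± 390.0 CPM in the DMSO libraries of OA, while VIL1 had at most 3 counts in any library. CLDN4, CDH1 and CLDN7, genes of epithelial cell contacts, rose with both stressors by between 1.55 and 1.81 on the log2 scale, and ELF3 rose with TN by 1.76. With the replicate block KRT18 was also called with TN, at 0.59 (adjusted p 0.0225, edgeR). CDX2, an intestinal transcription factor, was at -0.76 ± 0.29 with OA, with all OA libraries below the DMSO libraries, and at -0.42 ± 0.35 with TN (adjusted p 0.164 and 0.507, edgeR). EPCAM, an epithelial adhesion protein, was at -0.23 ± 0.36 and 0.08 ± 0.28 (adjusted p 0.736 and 0.894, edgeR). The summed level of the list was between 4349 and 6427 CPM with DMSO and between 5693 and 9561 CPM with OA, and between 4438 and 5900 CPM with DMSO and between 5421 and 9561 CPM with TN. None of 8 leukocyte markers passed the filter, and their summed level was at most 1.56 CPM in any library. Of 6 fibroblast markers, COL1A1 went from 1.72 ± 0.529 to 6.99 ± 4.75 CPM with OA (adjusted p 0.0723, edgeR), and the summed level of the list was at most 12.9 CPM. The part of these shifts in the transporter results was not tested.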

How the data were processed

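The authors aligned reads from a stranded total RNA kit to hg38 with STAR, counted them per gene on a Gencode annotation, and deposited raw counts per gene without normalization. The column of STAR counts used for the strand is not given in the sources used here. The authors' DESeq2 columns (mean level, fold change, error, statistic, p-values) were not used. Groups and replicate numbers came from the labels.

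Genes were kept by filterByExpr, scaled by TMM and tested with glmQLFit and glmQLFTest in edgeR 4.0.16 (R 4.3.3), two-sided, with OA and TN fitted separately on 3 against 3 libraries. The p-values were adjusted by Benjamini-Hochberg over all genes tested, with a threshold of 0.05. CPM and per kb levels were computed here. DESeq2 1.42.0, other scalings and filters, a replicate block, a GC offset per library from a smooth curve (transcripts of Gencode; 99.8% of tested genes had a value) and leaving out each library were alternatives. The chi-square per gene between replicates was at least 6.25, so no 2 replicates held the same counts within sampling noise.

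In TN, deviations from the group mean of same-numbered treated and DMSO libraries correlated at 0.64, 0.41 and 0.43 over genes. Replicates 2 and 3 were not told apart by number, since TN replicate 2 correlated at 0.44 with DMSO replicate 3 and TN replicate 3 at 0.38 with DMSO replicate 2, and the labels name no shared batch. The tests reported carry no block, and the blocked value is given beside a TN result where it changes the call.

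The 10 transporters, the lists and the tests were chosen with earlier results of these data known. Named were all 10 in both comparisons, from each other list at most 4 genes of lowest p in either comparison, and for SLC3A2, SLC7A5 and SLC7A11 the 3 nearest genes with at least 10 CPM on average. KRT8, KRT18, VIL1, CDX2, EPCAM, CEBPG, GGCT and CHAC2 were added after their values were seen. Coordinates are hg38 from a Gencode annotation, and promoters are from RefSeq.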

Additional observations from a re-analysis of the deposited data

How the results depend on the processing

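In the 10 settings other than leaving out a library (DESeq2, 3 other scalings, 2 other filters, the replicate block, the GC offset, both together, and the joint fit), from 6 to 10 transporters were called higher with OA and from 7 to 10 with TN, while from 672 to 3914 and from 1082 to 5366 genes were called in all, and the 10 fitted changes stayed above 0. Scaling to total counts moved the median of all genes to -0.22 with OA and -0.18 with TN on the log2 scale, while with ACTB as the reference it was 0.42 and 0.30. Leaving out 1 library gave from 0 to 8 called transporters with OA and from 1 to 9 with TN. Leaving out 1 library in the joint fit of all 12, an alternative chosen after seeing the data, gave from 6 to 8 and from 5 to 6. Of the 320 log2 fold changes under alternatives, 249 kept their direction and their side of the threshold, 49 lost the call, 21 gained it and 1 reversed, that of SLC38A1 with OA (-0.11 to 0.64 over the libraries left out).

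The OA change minus the TN change was called for 0 transporters in each setting. It reversed in 17 of 120 values with 1 library left out, and in 0 of 50 in other settings. With 1 library left out it ranged from -0.68 to 0.16 for SLC7A11, from -0.039 to 0.54 for SLC7A5, from -0.64 to 0.19 for SLC3A2, from -0.036 to 0.61 for SLC7A1, from -0.21 to 0.23 for SLC1A4, from -0.066 to 0.56 for SLC1A5, from -0.50 to 0.77 for SLC38A2 and from -0.23 to 0.58 for SLC43A1. It kept its direction for SLC6A9, from 0.295 to 0.98, and for SLC38A1, from -0.86 to -0.045. The difference in log2 ratio to SLC3A2 ranged from -0.051 to 1.14 for SLC7A11 with OA (below 0 without DMSO replicate 2 or OA replicate 1), from -0.063 to 1.22 for SLC7A11 with TN (below 0 without DMSO replicate 1), and from -0.42 to 0.052 for SLC7A5 with OA (above 0 without OA replicate 2). The cause was not tested.

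With the replicate block, 8 transporters were called with OA and 8 with TN, while 3914 of 14681 and 3915 of 14432 genes were called in all, beside 658 and 1009 without it. The added transporter was SLC1A5 with each stressor (with OA 0.99, adjusted p 0.00614, edgeR), and no other call among the 10 changed. In OA, same-numbered libraries correlated at 0.63, 0.54 and 0.09, and each treated library correlated best with its own number, a hint of pairing that the labels do not state and that is weak for replicate 3.

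Limits: with 3 libraries per group, the smallest exact p is 0.1, and depth was lowest in OA replicate 3 with 9884124 counts.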
